A study of Danio rerio with 16 samples.

Results

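RNA-seq of whole zebrafish embryos at 15 h post fertilization (hpf) was searched for genes that every gfi1aa mutant library held at a higher level than every library with intact gfi1aa, and 44 such genes of the 32520 in the count table are described here. A gene was taken when its lowest level in CPM (counts per 1000000 counts of the library) over the 8 gfi1aa mutant libraries exceeded its highest CPM over the other 8, and when its mean CPM in the mutant libraries was at least 1. The rule left out 12 named endothelial and hemangioblast genes (sox7, etv2, cdh5, clec14a, flt4, kdrl, egfl7, scarf1, aqp8a.1, fli1a, tie1 and tal1), of which 6 met it. In all, 50 of 16649 genes with a mean CPM of at least 1 in the mutants met the rule (0.300%). Of the genes with a mean CPM of at least 1 in the other libraries, 49 lay apart in the opposite direction. The genes were chosen by their CPM in gfi1aa mutants against the others, so those values are a description and carry no test.

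The 16 libraries comprised 2 for each of 8 genotypes. The 4 genotypes with intact gfi1aa were wild type (WT), gfi1b-/-, gfi1ab-/- and gfi1b/1ab DM, which carried mutations in both gfi1b and gfi1ab. The 4 without gfi1aa were the single mutant gfi1aa-/-, the triple mutant gfi1 TM, gfi1aa/1b DM, and gfi1aa/1ab DM. The alleles were gfi1aa smu10, gfi1b smu11 (a short insertion) and gfi1ab smu12 (a short deletion). Single mutants came from intercrosses of heterozygotes, gfi1aa/1b DM from gfi1aa+/- gfi1b-/- parents, gfi1aa/1ab DM from gfi1aa+/- gfi1ab-/- parents and gfi1 TM from gfi1aa-/- gfi1b-/- gfi1ab+/- parents, and embryos were sorted by genotyping. The paper calls the WT embryos wild-type siblings, without saying of which cross. The sources used here name no cross for gfi1b/1ab DM and do not say which libraries shared a clutch. A difference between families and a difference between genotypes therefore cannot be told apart. Nothing states that replicate libraries came from separate pools of embryos, so p-values measure the spread between these libraries, which may be technical.

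Gfi1 proteins are zinc finger repressors that bind DNA and recruit the histone demethylase Lsd1 with the CoREST complex. In the early embryo, hemangioblasts give rise to both primitive red blood cells and endothelial cells, and Gfi1 factors are known to hold back the endothelial programme in cells that become erythroid. Zebrafish carry the paralogs gfi1aa, gfi1ab and gfi1b. Since whole embryos were sequenced, more cells of a type and more RNA per cell cannot be told apart.

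The libraries held 15657371 to 22524501 counts on genes (median 19442820), and 77.3% to 80.4% of reads lay on genes. The lowest share on genes belonged to gfi1 TM replicate 2. The mutant alleles left transcripts that were still counted, so the counts of gfi1aa, gfi1b and gfi1ab did not check the genotypes. The marker lists of other cell types held none of the 44 genes. Erythroid markers, which include the globins and alas2 of heme synthesis, had a median log2 difference of -1.79 between gfi1aa mutant and other libraries, and 6 of the 9 with a mean CPM of at least 1 were lower in every mutant library. The part of this shift in the levels below was not tested.

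Most of the 44 differences were small. The mean CPM of the mutant libraries was at least 2 times that of the others for 8 genes, 1.5 to 2 times for 14 and under 1.5 times for 22, of which 10 were under 1.2 times, and the median ratio was 1.46. Counts of the 44 genes ran from 11 to 5739 per mutant library. The lowest mutant library exceeded the highest other library by a factor of at least 1.1 for 12 genes and by under 2% for 20. The 3 genes closest to the edge on the inside were sirt1, a deacetylase, with a lowest mutant level of 41.50 CPM against a highest other level of 41.46, rabgap1l2, a Rab GTPase-activating protein, with 12.51 against 12.49 CPM, and mrps14, of the mitochondrial ribosome, with 26.76 against 26.68 CPM. Just outside were acy3.2 with a lowest mutant level of 27.65 CPM against a highest other level of 27.65, flt4 with 22.65 against 22.67, and psmc2 with 149.2 against 149.5. Membership at this edge depended on how library size was set, since 36 of the 44 remained with TMM library sizes, where psmb5, arpc2, cldn7b, capns1b, elocb, mrps14, rabgap1l2 and bcl6b gave way to 8 others.

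**Figure D1:**
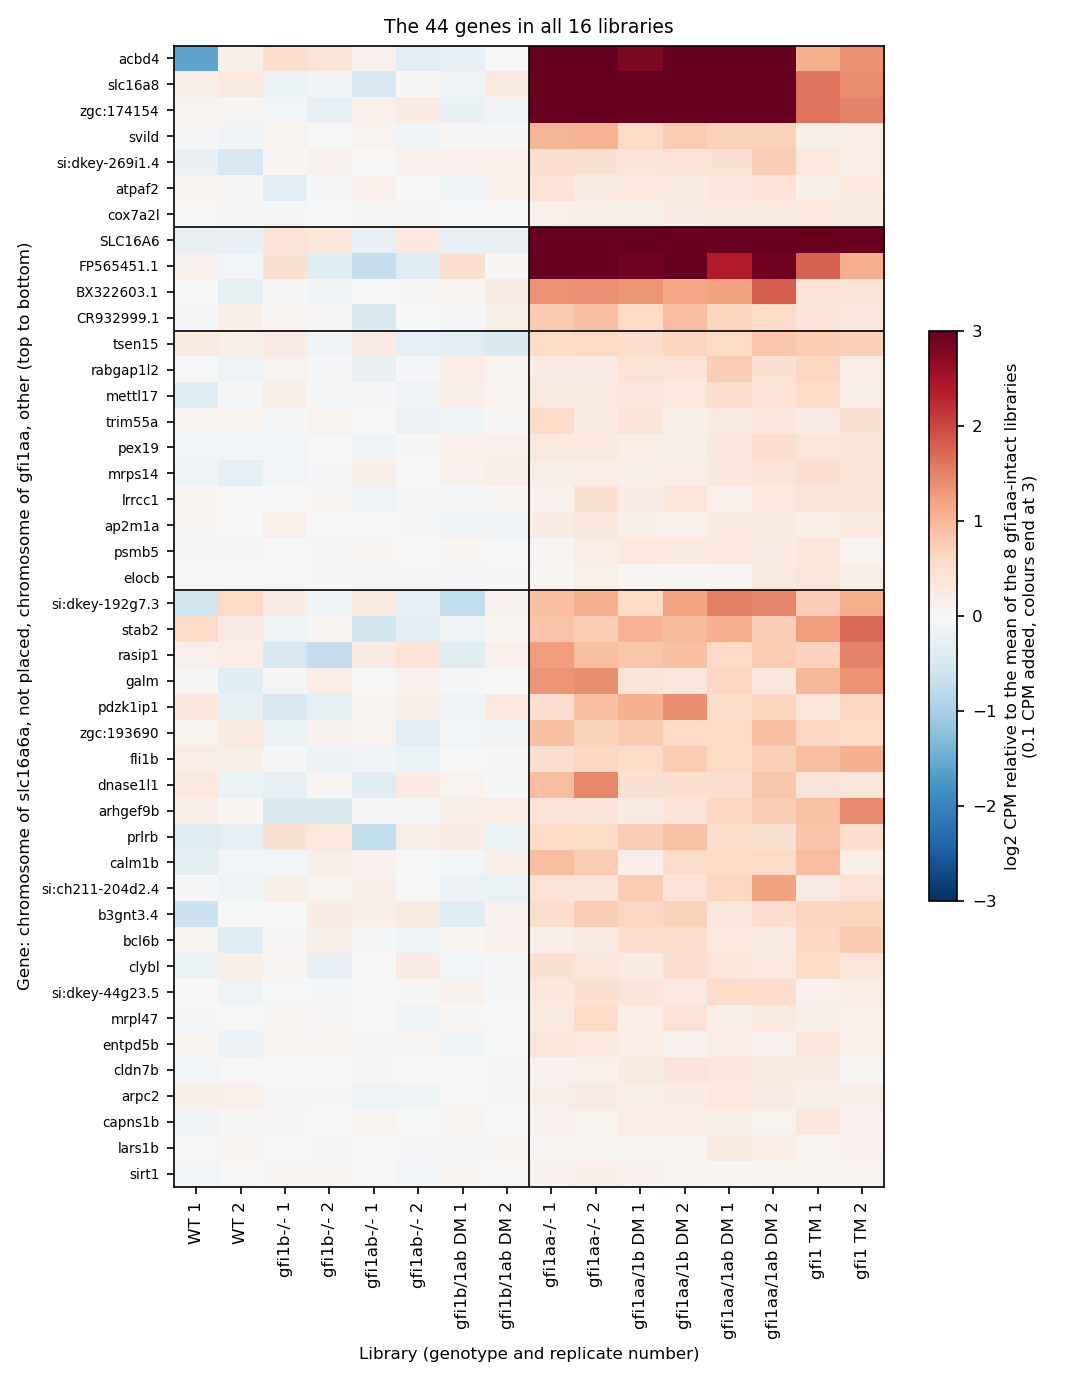
Level of each of the 44 genes (rows) in each of the 16 libraries (columns), as log2 CPM relative to the mean of the 8 libraries with intact gfi1aa after adding 0.1 CPM, with colours ending at 3. The 8 columns right of the line are gfi1aa mutants. Dark rows at the top belong to slc16a8, zgc:174154, acbd4, SLC16A6 and FP565451.1, all but SLC16A6 paler in gfi1 TM, and most other rows differ by under 1 log2 unit.

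The genes were not spread evenly over the genome. Gene order was read from the RefSeq table of the GRCz12tu assembly, another build than the GRCz11 of the counts, and distances are counts of protein-coding genes. Of the 44 genes, 40 could be placed and 4 could not (SLC16A6, FP565451.1, BX322603.1 and CR932999.1). On the chromosome of gfi1aa lay 10 of the 40 (25%), compared with 4.64% of the 15054 genes placed with a mean CPM of at least 1. Within 100 genes of gfi1aa lay 2 of these 10 (5% of the 40, against 0.711% of all genes placed). Another 7 (17.5%) shared a chromosome with slc16a6a, a gene that comes up with SLC16A6 below, compared with 3.64% of all genes placed. Within 100 genes of slc16a6a lay 3 of these 7 (7.5% of the 40, against 0.957% of all genes placed). The chromosome of slc16a6a, unlike that of gfi1aa, was picked after the data were seen. The other 23 lay on other chromosomes, and no chromosome but those of gfi1aa and slc16a6a held more than 3. These shares describe where the genes lie and were given no test.

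**Figure D2:**
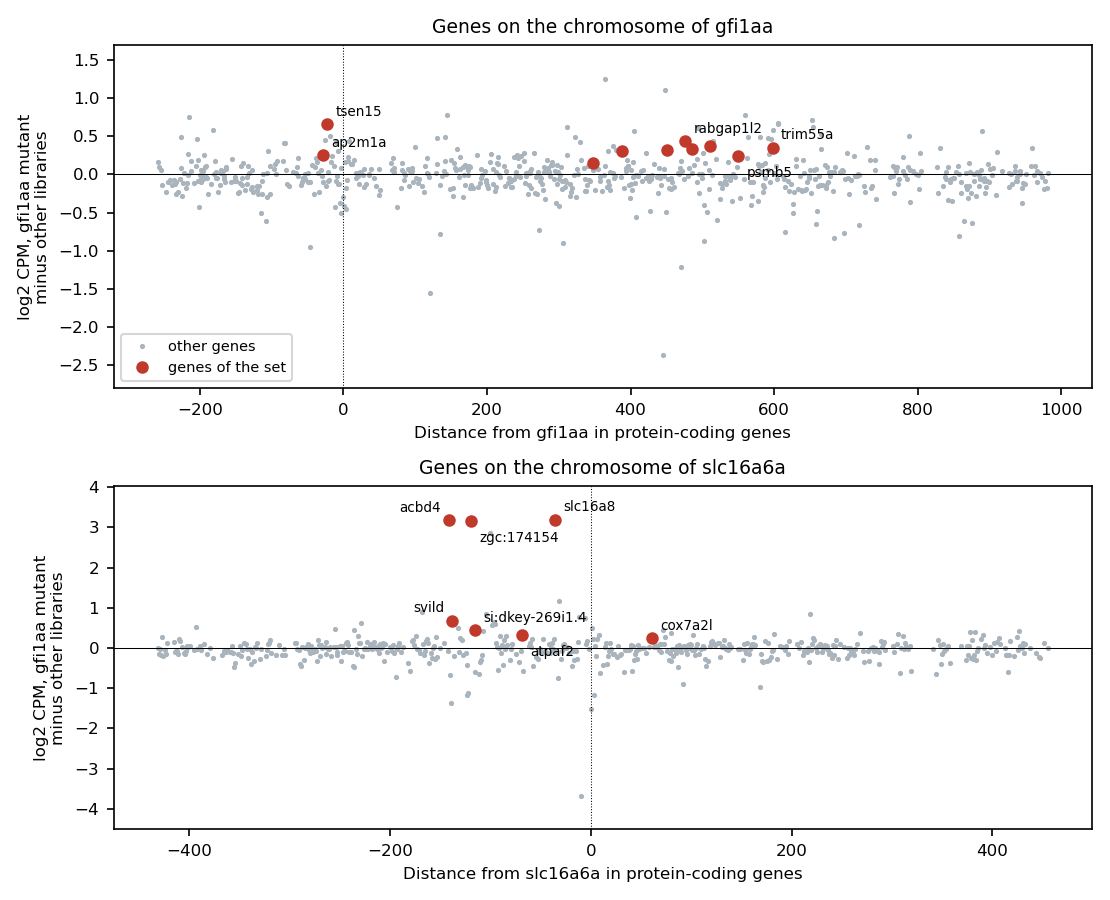
Log2 difference in mean CPM between gfi1aa mutant and other libraries (0.1 CPM added) for each gene placed on the chromosome of gfi1aa (top) and on that of slc16a6a (bottom), against its distance in protein-coding genes. The genes described here are red, and acbd4, zgc:174154 and slc16a8 stand at about 3 log2 units while the 10 on the chromosome of gfi1aa stay under 1.

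The largest contrast was that of SLC16A6 (ENSDARG00000104629), which the table describes as monocarboxylate transporter 7-like. It had 585 and 722 counts in gfi1aa-/- and 103 and 69 in gfi1 TM. Between these lay gfi1aa/1b DM with 312 and 391 counts, and gfi1aa/1ab DM with 311 and 573. In each of the 8 libraries with intact gfi1aa it had 0 or 1 count. Against a floor of 3 counts per library, the mean of the mutant libraries was at least 132-fold higher, and by genotype the bound was 206-fold in gfi1aa-/-, 28.7-fold in gfi1 TM, 132-fold for gfi1aa/1b DM and 161-fold for gfi1aa/1ab DM.

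The related gene slc16a6a, which encodes a transporter known in zebrafish for moving ketone bodies out of the liver, had the reverse pattern. It had 0 counts in both gfi1aa-/- libraries, between 279 and 696 in the 4 libraries of the gfi1aa/1b DM and gfi1aa/1ab DM, 1962 and 1703 in gfi1 TM, and 1909 to 2530 in the 8 libraries with intact gfi1aa. STAR counts only reads with a single place in the genome. How alike SLC16A6 and slc16a6a are in sequence was not examined, so whether and how they share reads is uncertain. Of the counts on the pair, SLC16A6 took 100% in both gfi1aa-/- libraries (95% Wilson intervals from 99.3% and 99.5% upward). The share was 39.0% and 36.0% for gfi1aa/1b DM. It was 32.8% (29.9% to 35.9%) and 67.3% (64.0% to 70.3%) for gfi1aa/1ab DM, while gfi1 TM had 4.99% and 3.89%. The gfi1aa/1ab DM replicates thus differed beyond counting error, which is all these intervals cover. The sum of both genes was 30.8 and 32.1 CPM in gfi1aa-/-, 46.4 to 56.6 CPM in the 4 libraries of these double mutants, 98.4 and 98.5 CPM in gfi1 TM, and 101 to 114 CPM in the libraries with intact gfi1aa.

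**Figure D3:**
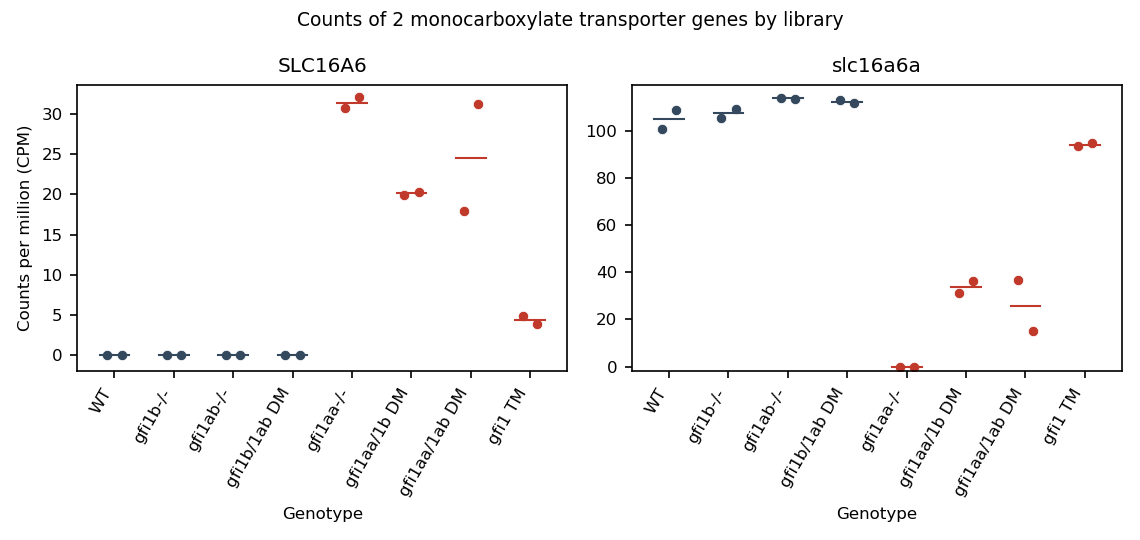
CPM of SLC16A6 (left) and slc16a6a (right, on a different scale) by genotype, with 1 point per library and a line at the mean of 2. SLC16A6 is at 0 to 0.0553 CPM where gfi1aa is intact (dark) and highest in gfi1aa-/- (red), where slc16a6a is at 0.

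The 7 genes on the chromosome of slc16a6a lay between 141 genes on one side of it and 61 on the other. Of the 132 genes with a mean CPM of at least 1 in that stretch, these 7 were higher in every mutant library and 3 were lower in every one. Over all genes, 50 of 16649 with a mean CPM of at least 1 in the mutants (0.300%) were higher in every mutant library. Lower in every one were 49 genes with a mean CPM of at least 1 in the other libraries. The 132 were taken by the mean over all 16 libraries, so these bases differ. The outermost of the 7 genes set the ends of the stretch, so no conclusion is drawn from the counts within it. The most different were slc16a8, zgc:174154 and acbd4, whose mean levels were 9.47, 9.03 and 13.1 times those of the other libraries.

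slc16a8 encodes a lactate transporter that in mammals marks the retinal pigment epithelium, and it lay 36 genes from slc16a6a. Its level ran from 6.89 to 35.3 CPM in the mutant libraries, with a median of 26.2, and from 1.76 to 3.16 CPM in the others, with a median of 2.49. The groups stood well apart, and within the mutants gfi1 TM was lowest at 8.05 and 6.89 CPM while gfi1aa-/- had 33.9 and 35.3 CPM. zgc:174154, a gene without a known role, lay 119 genes away, with 32.1 to 158 CPM in the mutants (median 118) and 9.48 to 13.9 CPM in the others (median 11.4). Its lowest mutant libraries were again those of gfi1 TM, at 35.9 and 32.1 CPM, and gfi1aa/1ab DM replicate 2 was the highest.

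acbd4 encodes an acyl-CoA binding protein and was the least abundant of the 3. It ran from 0.524 to 4.73 CPM in the mutants (median 2.54), which stands for 11 to 104 counts, and from 0 to 0.332 CPM in the others, which stands for 0 to 6 counts. Next to it, 3 genes apart, was svild, a gene for a supervillin, a protein that ties actin to membranes. It had 59.6 to 108 CPM in the mutants (median 84.6) and 48.3 to 56.7 CPM in the others (median 52.6), with gfi1 TM at 59.6 and 60.7 CPM close above the highest other library. si:dkey-269i1.4 lay 4 genes from zgc:174154 and had 101 to 144 CPM in the mutants (median 117) and 60.8 to 96.0 CPM in the others (median 91.6). Its lowest libraries were the 2 of WT, at 73.1 and 60.8 CPM.

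The remaining genes of this stretch serve mitochondria and differed little. cox7a2l, whose product helps respiratory complexes assemble into supercomplexes, had 36.6 to 40.7 CPM in the mutants (median 39.1) and 31.4 to 33.7 CPM in the others (median 32.8), with gfi1 TM replicate 1 the highest. atpaf2, an assembly factor of the ATP synthase, had 20.0 to 24.3 CPM (median 22.2) against 14.04 to 19.9 CPM (median 18.1).

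Of the 3 unplaced genes with clone names, FP565451.1 and BX322603.1 are described because they passed a test below, and CR932999.1, which passed none, was added after its values were seen. FP565451.1 had 9.78 to 65.1 CPM in the mutants (median 34.9) and 2.73 to 6.35 CPM in the others (median 4.54). It was highest in gfi1aa-/- at 65.1 and 60.2 CPM and lowest in gfi1 TM at 15.6 and 9.78 CPM, as was slc16a8. BX322603.1 had 35.1 to 90.6 CPM (median 63.6) against 21.2 to 31.0 CPM (median 26.5), and its gfi1 TM libraries at 35.5 and 35.1 CPM were again the lowest. CR932999.1 had 5.95 to 9.06 CPM (median 7.24) against 3.47 to 5.35 CPM (median 4.72).

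The 10 genes on the chromosome of gfi1aa spanned a stretch in which 381 genes had a mean CPM of at least 1. In it, 6 others were lower in every mutant library. The outermost of the 10 set its ends, so no conclusion is drawn from these counts either. The 10 differed far less, with a median ratio of means of 1.25, compared with 1.60 on the chromosome of slc16a6a and 1.54 for the 23 genes elsewhere. tsen15, a subunit of the tRNA splicing endonuclease, lay 23 genes from gfi1aa and had the largest ratio of the 10 at 1.58. It had 18.5 to 23.0 CPM in the mutants (median 19.7) and 9.49 to 15.5 CPM in the others (median 13.2), so the groups were separated by 1.19 times. ap2m1a, the mu subunit of the clathrin adaptor AP-2, lay 28 genes from gfi1aa and had 175 to 197 CPM in the mutants (median 187) and 145 to 173 CPM in the others (median 156). In the gfi1aa mutants the chromosome segment that holds the smu10 allele comes with it, so the effect of losing gfi1aa and that of sequence linked to it cannot be told apart for such neighbours.

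The other 8 on that chromosome lay 348 to 598 genes away. They were elocb (elongin C), lrrcc1 (a centrosomal protein), mrps14 (mitochondrial ribosome), rabgap1l2, pex19 (import of peroxisomal membrane proteins), mettl17 (assembly of the mitochondrial ribosome), psmb5 (a catalytic subunit of the proteasome) and trim55a (a muscle RING finger protein). Their ratios of means ran from 1.11 for elocb to 1.35 for rabgap1l2. lrrcc1 had 20.1 to 25.04 CPM in the mutants (median 22.9) and 16.4 to 18.98 CPM in the others (median 18.4). The most abundant was psmb5, with 224 to 274 CPM in the mutants (median 256) and 206 to 222 CPM in the others (median 212). Of the 10 genes, 6 remained with TMM library sizes, since elocb, mrps14, psmb5 and rabgap1l2 no longer met the rule.

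Listed endothelial genes made up 3 of the 23 genes elsewhere, apart from the 12 that the rule left out. Another 44 endothelial genes were listed from general knowledge, with earlier results of these data known. Of these, 37 had a mean CPM of at least 1, among 16698 genes at that level. Their median log2 difference was 0.34, compared with -0.01 for all 16698. Only fli1b, stab2 and rasip1 of the list were among the 44 genes described here. No gene of the lists of Vegf and Notch signalling, of genes repressed by mammalian GFI1 or GFI1B, or of Lsd1 and CoREST cofactors was among them, and of the hemangioblast factors only fli1b was.

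fli1b encodes an Ets transcription factor of endothelial precursors and is the neighbour of etv2 in the gene order. It had 12.2 to 18.5 CPM in the mutants (median 13.9) and 7.64 to 10.3 CPM in the others (median 8.66). The groups were separated by 1.19 times, and both gfi1 TM libraries, at 16.5 and 18.5 CPM, were above all others. stab2, a scavenger receptor for hyaluronan in veins and lymphatic vessels, had 24.2 to 47.4 CPM (median 28.9) against 9.55 to 21.45 CPM (median 14.1). Among libraries with intact gfi1aa, the highest were those of WT at 21.45 and 17.1 CPM and the lowest those of gfi1ab-/- at 9.55 and 11.3 CPM.

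rasip1, a Ras-interacting protein needed for vessels to form a lumen, had 4.84 to 9.06 CPM in the mutants (median 5.82) and 1.89 to 4.22 CPM in the others (median 3.53). Its gfi1 TM libraries were far apart, at 5.15 and 9.06 CPM, the first of them the second lowest of the mutants. The counting join of both strands gave it fewer reads than the separate strands did, by a factor of 1.32, as for bcl6b and mettl17 (1.31 each) and rabgap1l2 (1.59). Reads that overlap genes on both strands are left out by that count. Counted as the sum of the strands, rasip1 still met the rule, whereas bcl6b, a repressor of the Bcl6 family found in endothelium, did not.

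**Figure D4:**
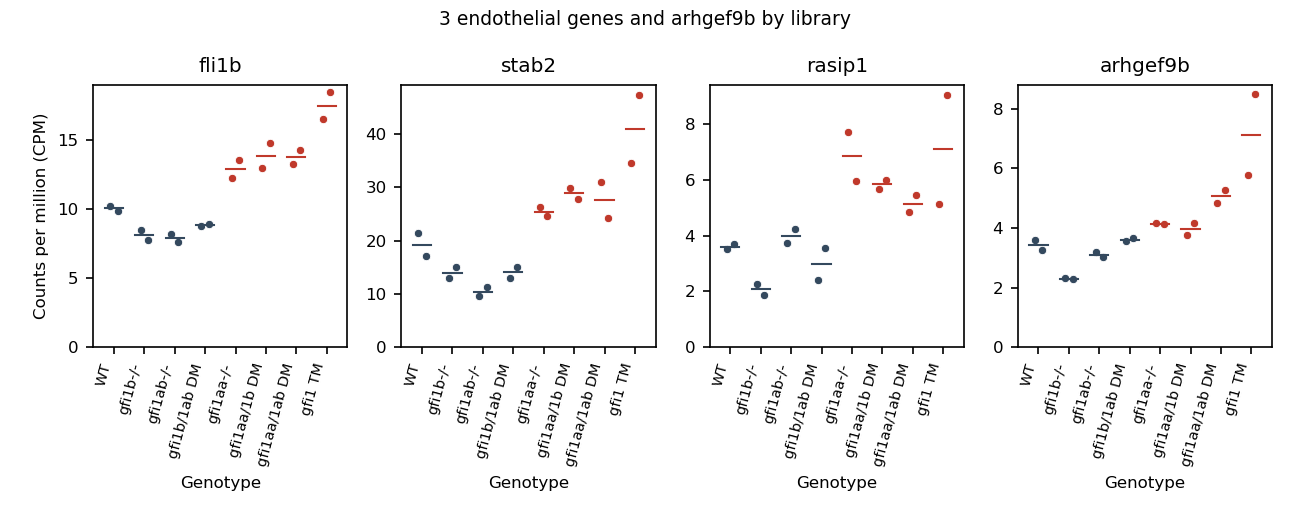
CPM of fli1b, stab2, rasip1 and arhgef9b by genotype, with 1 point per library, a line at the mean of 2, dark points for intact gfi1aa and red for gfi1aa mutants. All red points lie above all dark points, and the highest point of each gene is gfi1 TM replicate 2, the library with the lowest share of reads on genes.

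The other 20 genes were varied. arhgef9b, an exchange factor for Cdc42, had 3.77 to 8.50 CPM in the mutants (median 4.503) and 2.28 to 3.65 CPM in the others (median 3.22), with its highest levels in gfi1 TM at 5.77 and 8.50 CPM. The higher of these libraries, replicate 2, was also the highest for fli1b, stab2 and rasip1, and it had 77.3% of reads on genes, the lowest share of the 16. Its part in these levels was not tested. galm, galactose mutarotase, had 9.04 to 19.1 CPM (median 12.7) against 5.598 to 8.33 CPM (median 7.21). Its levels were uneven among the mutants, with 18.2 and 19.1 CPM in gfi1aa-/- and 14.4 and 18.6 CPM in gfi1 TM, while the 4 libraries of gfi1aa/1b DM and gfi1aa/1ab DM had 9.04 to 11.01 CPM.

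zgc:193690, named ddx19a in RefSeq after an RNA helicase of mRNA export, had the widest gap outside the chromosome of slc16a6a and the unplaced genes, with 3.54 to 4.52 CPM (median 3.77) against 1.84 to 2.92 CPM (median 2.38). b3gnt3.4, a glycosyltransferase, had 2.42 to 3.20 CPM against 1.17 to 2.29 CPM. si:ch211-204d2.4, plekha2 in RefSeq, had 1.81 to 3.59 CPM against 1.30 to 1.71 CPM. Such low levels stand for few counts. si:dkey-192g7.3, with a ratio of means of 2.29, had 20 to 45 counts in the mutants and 9 to 26 in the others.

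Several abundant genes were higher by a narrow margin. arpc2, a subunit of the Arp2/3 complex that branches actin, had 218 to 237 CPM in the mutants (median 224) and 173 to 217 CPM in the others (median 188), with WT highest among the latter at 217 and 213 CPM. capns1b, the small subunit of calpain, had 146 to 172 CPM against 127 to 144 CPM. cldn7b, a tight junction claudin of epithelia, had 121 to 154 CPM against 111 to 120 CPM. These 3 genes no longer met the rule with TMM library sizes. lars1b, a leucyl-tRNA synthetase, had 98.3 to 112 CPM against 90.5 to 97.1 CPM.

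The remaining genes were mrpl47 of the mitochondrial ribosome, dnase1l1 (a deoxyribonuclease), entpd5b (a nucleotide diphosphatase), pdzk1ip1, calm1b (calmodulin), clybl (a mitochondrial lyase), si:dkey-44g23.5 (mcrip2 in RefSeq), prlrb (a prolactin receptor), sirt1 and bcl6b. Their ratios of means ran from 1.08 for sirt1 to 1.76 for pdzk1ip1. mrpl47 lay 12 genes from gfi1ab. si:dkey-44g23.5 had 43.4 to 58.9 CPM in the mutants and 35.5 to 43.1 CPM in the others. dnase1l1 had its highest levels in gfi1aa-/-, at 10.7 and 15.4 CPM, and calm1b reached 16.4 CPM in both gfi1aa-/- replicate 1 and gfi1 TM replicate 1.

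Each gfi1aa mutant genotype was also set beside the genotype whose label differed from it in gfi1aa alone, which gives 4 pairs with no library in common. The crosses given above differed within some of these pairs too, and gfi1 TM had parents that lacked gfi1aa. Family, parental genotype and loss of gfi1aa therefore cannot be told apart in these differences. Levels here are means of log2 CPM with 0.1 CPM added. The median difference over the 44 genes was 0.45 for gfi1aa-/- against WT, 0.42 for gfi1aa/1b DM against gfi1b-/-, 0.49 for gfi1aa/1ab DM against gfi1ab-/-, and 0.37 for gfi1 TM against gfi1b/1ab DM. Over all 16698 genes these medians were 0.01, -0.04, -0.02 and -0.02. The rule fixes the sign of all 44 in each pair. Differences of at least 1 log2 unit were seen for 11, 9, 8 and 10 genes in the order of these pairs, and for 3.50%, 1.44%, 1.46% and 0.928% of all 16698 genes. Among the 4 mutant genotypes, the highest mean log2 level was in gfi1aa-/- for 15 genes (35.6% of all genes were highest there), gfi1aa/1ab DM for 13 (22.7%), gfi1 TM for 11 (19.2%) and gfi1aa/1b DM for 5 (22.6%), so the leading count was no larger a share than over all genes. The lowest was in gfi1 TM for 17 genes (16.4% of all genes had their lowest level there).

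The pairs differed most for the genes at the top of the list. slc16a8 differed by 3.47, 3.46 and 3.66 log2 units in the first 3 pairs and by 1.43 in gfi1 TM against gfi1b/1ab DM. zgc:174154 differed by 3.45, 3.53 and 3.21 and then by 1.72. For stab2 the order was the reverse, with 0.41 for gfi1aa-/- against WT, 1.04 and 1.39 for the double mutants and 1.52 for gfi1 TM. fli1b went from 0.35 over 0.76 and 0.80 to 0.97. The genotypes compared with differed as well. Mean stab2 was 19.3 CPM in WT and 10.4 to 14.1 CPM in the other genotypes with intact gfi1aa. It was 25.4, 28.9 and 27.6 CPM in gfi1aa-/-, gfi1aa/1b DM and gfi1aa/1ab DM, with gfi1 TM libraries at 34.6 and 47.4 CPM. Mean fli1b was 10.1 CPM in WT, 7.91 to 8.88 CPM in the other intact genotypes and 12.9 to 17.5 CPM in the mutants. The high WT level thus lowered the first difference of both genes.

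Loss of gfi1b or gfi1ab in embryos that already lacked gfi1aa was tested with edgeR's quasi-likelihood test on all 16 libraries, with 8 genotype means and p-values adjusted by Benjamini-Hochberg over the 19903 genes tested. Genes with an adjusted p under 0.05 are said to have risen or fallen. All 44 genes passed the filter on low counts. These contrasts compare libraries within the gfi1aa mutants and did not choose the genes, although the rule limits how far a gene can vary within a group. Each contrast is an average over both states of the other paralog, so that loss of gfi1b joins gfi1aa/1b DM against gfi1aa-/- with gfi1 TM against gfi1aa/1ab DM. Both contrasts contain gfi1 TM, whose parents lacked gfi1aa, so family, parental genotype and loss of a paralog cannot be told apart in them. Averaged in this way, loss of gfi1b was followed by a fall of 8 of the 44 genes (18.2%, background 4.32% of all genes lower). It was followed by a rise of 1 (2.27%, background 4.87% higher). Among the genes that fell, acbd4, slc16a8, zgc:174154 and svild lay on the chromosome of slc16a6a. They may not vary independently, so the share that fell is not one of separate genes. Loss of gfi1ab was followed by a fall of 6 (13.6%, background 10.5%) and a rise of 7 (15.9%, background 10.9%), shares not far above those of all genes. In this contrast 4 of 8 muscle markers and 4 of 10 erythroid markers tested also rose and 0 fell. Of 7 cardiac markers, 0 rose and 2 fell. Of 42 other listed endothelial genes tested, 9 rose, stab2 and fli1b among them, and 2 fell. Of 22 Vegf and Notch signalling genes, 4 rose and 7 fell. Of 24 genes repressed by mammalian GFI1 or GFI1B, 7 rose and 3 fell. Of 14 hemangioblast factors 2 rose and 3 fell, and of 10 Lsd1 and CoREST cofactors 2 rose and 2 fell. Pronephros markers (6) and neural markers (5) each had 1 higher and 2 lower. Primitive myeloid markers (5) had 0 higher and 2 lower, neural crest markers (5) 0 and 1, and otic markers (6) 0 and 0. The median over the muscle markers was 0.48 log2 units. The part of such shifts in the rises below was not tested.

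The genes that fell with loss of gfi1b were mostly those on the chromosome of slc16a6a and the unplaced ones. In the same contrast slc16a6a, not one of the 44, rose by 7.09 ± 0.42 log2 units (SE, adjusted p = 8.01e-07). Its 0 counts in both gfi1aa-/- libraries leave the size of that rise open. Whether the fall of SLC16A6 reflects reads shared with slc16a6a was not tested. The log2 fold change was -1.62 ± 0.27 for acbd4 (SE, adjusted p = 0.0017), -1.56 ± 0.15 for SLC16A6 (adjusted p = 7.24e-05), -1.16 ± 0.11 for slc16a8 (adjusted p = 2.38e-05) and -1.04 ± 0.11 for zgc:174154 (adjusted p = 5.83e-05). It was -1.001 ± 0.15 for FP565451.1, -0.60 ± 0.10 for BX322603.1 and -0.42 ± 0.06 for svild, with adjusted p of 0.00106, 0.00175 and 0.000515. All 7 of these calls held in each of 16 fits that left out 1 library. si:dkey-44g23.5 fell by 0.23 ± 0.06 (adjusted p = 0.0241), a call lost without gfi1aa-/- replicate 2, gfi1aa/1b DM replicate 2 or either gfi1aa/1ab DM library, where its log2 change stayed within -0.27 to -0.19. 

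With loss of gfi1ab, the 6 genes that fell were all among these 7. slc16a6a again rose, by 6.75 ± 0.44 (adjusted p = 1.81e-06), with the same limits on its size and on shared reads. The log2 fold change was -1.29 ± 0.27 for acbd4 (adjusted p = 0.00411), -1.24 ± 0.15 for FP565451.1 (adjusted p = 0.000202) and -1.23 ± 0.15 for SLC16A6 (adjusted p = 0.000327). It was -0.99 ± 0.11 for slc16a8, -0.89 ± 0.11 for zgc:174154 and -0.37 ± 0.06 for svild, with adjusted p of 9.07e-05, 0.000193 and 0.000858. These 6 calls also held without any 1 library. Both contrasts contain gfi1 TM, which had the lowest mutant level of each of the 7 genes. The steps behind the averages were uneven for some genes in both contrasts, and those for gfi1b are given first. For zgc:174154 the mean was 135 ± 12 CPM (SD, n = 2) in gfi1aa-/- and 118 ± 4.3 CPM for gfi1aa/1b DM, but 127 ± 44 CPM for gfi1aa/1ab DM and 34.0 ± 2.7 CPM in gfi1 TM. BX322603.1 likewise had 67.4 ± 0.89 and 62.7 ± 5.1 CPM in the first 2 genotypes and 75.8 ± 21 and 35.3 ± 0.27 CPM in the last 2. For FP565451.1 the first step was large as well, from 62.6 ± 3.4 to 35.7 ± 1.2 CPM, and the second went from 29.4 ± 7.8 to 12.7 ± 4.1 CPM. With loss of gfi1ab, zgc:174154 went from 135 to 127 CPM where gfi1b was intact, but from 118 to 34.0 CPM where it was lost. slc16a8 went from 34.6 to 28.7 CPM and from 26.2 to 7.47 CPM in the same order. For FP565451.1 both steps were large, from 62.6 to 29.4 CPM and from 35.7 to 12.7 CPM. The steps were not tested one by one.

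The genes that rose with loss of gfi1ab were led by arhgef9b, by 0.61 ± 0.14 (adjusted p = 0.00612), which held in all 16 fits without 1 library and was 0.47 without gfi1 TM replicate 2. mrps14 rose by 0.25 ± 0.06 (adjusted p = 0.0139), and this call was lost only without gfi1aa-/- replicate 1, where the adjusted p was 0.0686. stab2 rose by 0.36 ± 0.11 and fli1b by 0.26 ± 0.08, with adjusted p of 0.0343 and 0.0339, but 7 and 9 of the 16 fits without 1 library lost these calls, with a log2 change of 0.24 to 0.45 and of 0.21 to 0.31. Without gfi1 TM replicate 2 the edgeR values were 0.24 for stab2 (adjusted p = 0.0966) and 0.22 for fli1b (adjusted p = 0.0745). elocb rose by 0.19 ± 0.06, pex19 by 0.19 ± 0.05 and lars1b by 0.14 ± 0.04, and 6, 6 and 9 of the 16 fits lost them. All 5 of these weaker calls were lost without gfi1aa-/- replicate 1 and without gfi1aa/1b DM replicate 1. Without gfi1aa-/- replicate 1, 1 gene of the 44 rose in place of 7. Loss of gfi1b was followed by a rise of stab2 alone, by 0.38 ± 0.11 (adjusted p = 0.0455), and 12 of the 16 fits without 1 library lost that call, at 0.27 to 0.48, the lowest being without gfi1 TM replicate 2 (adjusted p = 0.118 in edgeR).

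**Figure D5:**
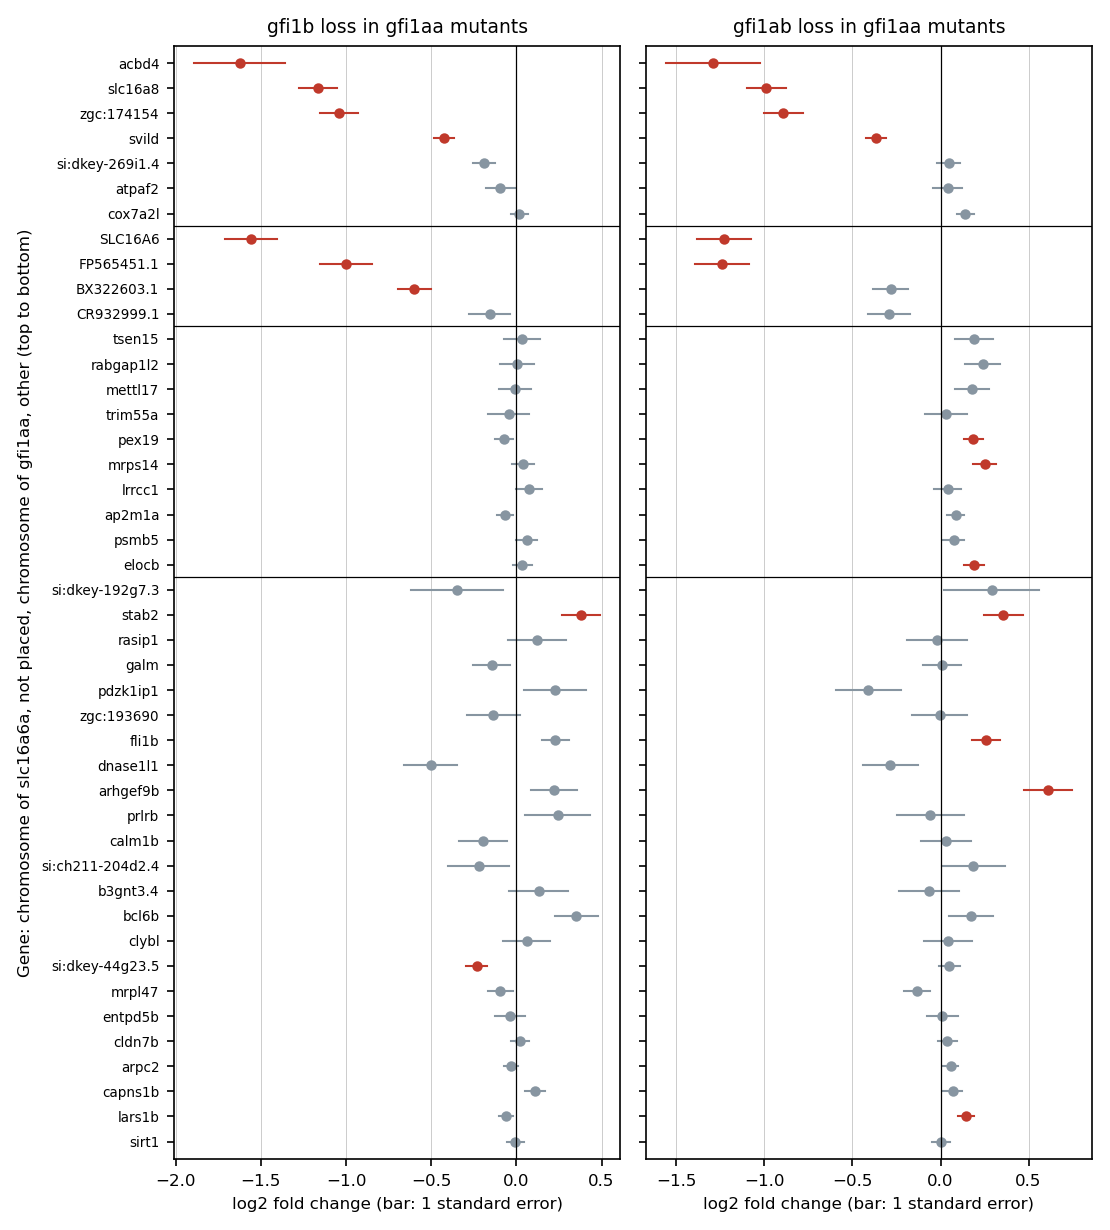
Log2 fold change of the 44 genes with loss of gfi1b (left) and loss of gfi1ab (right) among gfi1aa mutants, from edgeR, with bars of 1 standard error and red for an adjusted p under 0.05. The red points far left belong to genes on the chromosome of slc16a6a or to unplaced genes, and those right of 0 include stab2 in both panels and arhgef9b in the right one.

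With gfi1aa intact, the shares of the 44 genes that changed were near or under those of all genes. The rule also limits how far these genes can vary among libraries with intact gfi1aa, so no conclusion is drawn from these shares. Loss of gfi1b was followed by a rise of 1 gene (background 2.35%) and a fall of 0 (background 2.05%) in the edgeR test. At an unadjusted p under 0.05 there were 3 higher and 3 lower, and DESeq2 called 0 lower. The share of all genes at that unadjusted p was not counted, so the unadjusted counts are not read. The riser was si:dkey-269i1.4, by 0.27 ± 0.07 log2 units (adjusted p = 0.0329), lost in 10 of 16 fits without 1 library, at 0.20 to 0.34. Loss of gfi1ab was followed by a rise of 2 (background 6.29%) and a fall of 1 (background 4.89%). mrps14 rose by 0.30 ± 0.07 (adjusted p = 0.00909), which held without any 1 library. si:dkey-269i1.4 rose by 0.27 ± 0.07 (adjusted p = 0.0168), lost in 5 of the 16 fits, at 0.20 to 0.34. stab2 fell by 0.40 ± 0.12 (adjusted p = 0.0459), lost in 11 of the 16, at -0.48 to -0.31. Its mean went from 19.27 CPM in WT to 10.44 CPM in gfi1ab-/-. Between gfi1b-/- and gfi1b/1ab DM it stayed level, at 14.01 and 14.09 CPM. SLC16A6 and acbd4 had too few counts in these libraries for a fold change to be read.

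Whether the effect of a paralog differed between embryos without and with gfi1aa was tested as an interaction. It was again averaged over both states of the other paralog. Since gfi1 TM enters it, the limit on family and parental genotype given above holds here too. For gfi1b, 6 of the 44 genes had a lower effect in gfi1aa mutants (background 1.83%) and 0 a higher one (background 2.19%) in the edgeR test, with 9 lower and 3 higher at an unadjusted p under 0.05 and 0 higher in DESeq2. These 6 were slc16a8, zgc:174154, si:dkey-269i1.4, svild, FP565451.1 and BX322603.1. For si:dkey-269i1.4 the low WT level given above enters this difference. For gfi1ab, 5 were lower (background 4.81%) and 1 was higher (background 3.79%). The 5 were the same without si:dkey-269i1.4. The higher one was stab2, with a difference of 0.76 ± 0.16 log2 units (adjusted p = 0.0115). This call held in all 16 fits without 1 library, and the difference was 0.64 without gfi1 TM replicate 2. On average, stab2 fell with loss of gfi1ab where gfi1aa was intact and rose where it was not. The fall lay in WT against gfi1ab-/- alone, so the high WT level enters this difference. Without gfi1aa, mean stab2 went from 25.44 CPM in gfi1aa-/- to 27.57 CPM in gfi1aa/1ab DM. It went from 28.87 CPM in gfi1aa/1b DM to 40.99 CPM in gfi1 TM. These steps were not tested one by one. tsen15 and ap2m1a, the neighbours of gfi1aa, passed in none of the 6 contrasts, and tsen15 came nearest in the gfi1ab interaction at 0.50 ± 0.16 (adjusted p = 0.0638).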

How the data were processed

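RNA was measured in 16 libraries of whole embryos. Per the submitters' processing notes the authors used STAR with GRCz11 (version not given in the sources used here), and they deposited whole-number counts of reads per Ensembl gene, without normalization. The column joining both strands was used. Lines for reads not assigned to a gene stayed out of library sizes. Groups were taken from the genotype labels. The 44 genes, the gene lists and the tests were chosen with earlier results of these data known.

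The genes were found on column-sum CPM. The 6 contrasts were fitted in edgeR (4.0.16, R 4.3.3) with TMM factors (0.962 to 1.03), filterByExpr and glmQLFTest, 8 genotype means and 8 residual degrees of freedom. Standard errors are the fold change over the root of the F statistic. The script was tested on simulated data. DESeq2 (1.42.0), its size factors, no filter, a replicate block and leaving out each library were alternatives. Differences per pair of genotypes used a pseudocount of 0.1 CPM. The 4 unplaced genes had no match in the RefSeq table, and 4 other genes were matched under another symbol. Python (3.11.15), pandas (2.3.3), scipy (1.17.1) and matplotlib (3.10.9) were used.

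Named with values were the 15 genes with the widest gap and a symbol, the 5 most abundant, those on the lists, those passing a test and the neighbours of gfi1aa. Others singled out, among them CR932999.1, atpaf2, si:dkey-192g7.3, dnase1l1, calm1b and pdzk1ip1, were picked after their values were seen. No sequences or coordinates are shown, since no table of the files' build was used here.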

Additional observations from a re-analysis of the deposited data

Results flagged for a closer look

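The 12 values here are differences between the effect of a paralog in gfi1aa mutants and its effect with gfi1aa intact, in log2 units from the edgeR interaction test, each with an adjusted p under 0.05. For gfi1b they were -1.44 ± 0.26 (SE) for FP565451.1 (adjusted p = 0.00767), -1.11 ± 0.20 for slc16a8 (0.00761), -0.72 ± 0.14 for BX322603.1 (0.0129), -0.71 ± 0.18 for zgc:174154 (0.0394), -0.50 ± 0.08 for svild (0.00443) and -0.46 ± 0.09 for si:dkey-269i1.4 (0.0147). Only the one for zgc:174154 was lost without 1 library, in 12 of 16 fits, all but those without a gfi1aa/1ab DM or a gfi1 TM library, at -0.86 to -0.51.

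For gfi1ab they were -1.10 ± 0.27 for FP565451.1 (adjusted p = 0.0199), -0.997 ± 0.18 for zgc:174154 (0.00348), -0.92 ± 0.20 for slc16a8 (0.012), -0.50 ± 0.14 for BX322603.1 (0.0448), -0.42 ± 0.08 for svild (0.00665) and 0.76 ± 0.16 for stab2 (0.0115). The call for FP565451.1 was lost without gfi1b-/- replicate 2, gfi1ab-/- replicate 2 or gfi1b/1ab DM replicate 1, at -1.34 to -0.92 over all 16 fits. That for slc16a8 was lost without gfi1ab-/- replicate 2, where the adjusted p was 0.0624, and that for BX322603.1 in 12 of the 16 fits, at -0.65 to -0.37.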

How the results depend on the processing

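Of 38 single-gene calls, 23 held under every alternative and 0 turned sign. With TMM library sizes 44 genes met the rule and with DESeq2 size factors 48, 36 shared with the 44 in each case. With strand sums there were 42, and these 2 settings on size factors and strands were chosen after seeing the data. A gap of at least 1.2 times left 6 genes. Without 1 library 48 to 67 genes met the rule, since fewer libraries make it easier to meet. The count was 67 without gfi1 TM replicate 2 and next highest, at 58, without gfi1 TM replicate 1. Why gfi1 TM replicate 2 stood out was not tested.

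The replicate numbers did not pair the libraries, since the correlation of deviations ran from -0.09 to 0.09 over 28 pairs of genotypes. With the replicate block, 3 of the 38 calls were lost (stab2 in the 2 contrasts given next and BX322603.1 in the gfi1ab interaction) and no other changed, so that genes rising with loss of gfi1b in gfi1aa mutants went from 1 to 0 and those falling with loss of gfi1ab with gfi1aa intact from 1 to 0.

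Shares over all genes were not counted under the alternatives, so the counts below show only how far the calls moved. With DESeq2, 3 genes rose with loss of gfi1ab in gfi1aa mutants in place of 7, and 4 without the filter. Without the filter, loss of gfi1b with gfi1aa intact gave 2 higher and 2 lower, loss of gfi1ab with gfi1aa intact 2 lower, and the interactions with gfi1b and gfi1ab 2 higher each. The cause was not tested. Without 1 library, loss of gfi1b in gfi1aa mutants gave 0 to 1 higher and 7 to 9 lower, loss of gfi1ab 1 to 9 higher and 6 to 7 lower. With gfi1aa intact, loss of gfi1b gave 0 to 1 higher and 0 to 1 lower, loss of gfi1ab 1 to 2 higher and 0 to 2 lower. The gfi1b interaction gave 0 to 2 higher and 5 to 7 lower, the gfi1ab interaction 1 to 4 higher and 2 to 6 lower. The 8 genes with a mean under 5 CPM in the mutants rest on few counts.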
